A study of Arabidopsis thaliana with 8 samples.

Results

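Of the 18855 genes in the table, 10 are described here: 6 of the major latex protein-like (MLP) family and 4 glycine-rich protein genes from one stretch of chromosome 2. They were chosen by name, with their differences between the overexpressors and WT in these same libraries already known, so those differences are given as a description and carry no test. All 10 were listed. RNA was sequenced from untreated whole seedlings of Arabidopsis thaliana, 12 days old, of 3 genotypes. SPCHΔ49 basl-2 (n = 3) carried the transgene 35S:SPCHΔ49 in the basl-2 mutant, SPCHΔ49 (n = 3) carried 35S:SPCHΔ49 without that mutation, and WT (n = 2) carried neither. SPCHΔ49 is a shortened SPEECHLESS (SPCH), the transcription factor that starts the stomatal lineage, in a form that MAP kinases cannot mark for degradation, and BASL is a polarity protein of that lineage. The 35S promoter is active in most cell types, and per the series' design both transgenic genotypes make too many stomatal lineage cells. A basl-2 mutant without the transgene is not analysed here, and the labels do not say whether each genotype stands for 1 transgenic line or several.

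MLP proteins are small proteins of the Bet v 1 fold, named after the latex of opium poppy, with a hydrophobic pocket that can hold small ligands. In Arabidopsis MLP43 is known for a role in abscisic acid and drought responses, and MLP328 for promoting vegetative growth and delaying flowering. Glycine-rich proteins of the class described here carry a signal peptide and long runs of glycine, and act at or outside the cell surface. GRP3 binds the extracellular part of the wall-associated kinase WAK1, and GRP9 binds CAD5, an enzyme of lignin synthesis.

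All levels below are the signal the authors deposited for each gene, which is per transcript length and can therefore be compared between genes. The signals of a library summed to between 852202 and 1075376, and the median gene had between 12.3 and 13.6. The files hold no read numbers, so the depth behind a value is unknown and a counting error cannot be set beside it. Nothing in the labels says that replicates were grown separately, so the p-values cover the spread between these libraries alone, which may be technical. SPCH had a signal of 397.2, 337.9 and 486.6 in the SPCHΔ49 basl-2 libraries, 2628, 2357 and 2488 in the SPCHΔ49 libraries and 8.20 and 5.65 in the WT libraries. BASL had 2.095, 3.23 and 2.90 in SPCHΔ49 basl-2, 59.7, 58.1 and 35.3 in SPCHΔ49 and 3.34 and 3.52 in WT, so that the basl-2 libraries lay below both of the other genotypes. The overexpressors thus differed in the level of SPCH as well as in the basl-2 allele, and these cannot be told apart in the comparison between them. The summed signal of 12 root markers was 8.10 to 26.0 in SPCHΔ49 basl-2 and 11.03 to 32.2 in SPCHΔ49, against 242.1 to 247.4 in WT. All genes of the table have 1 or more throughout the libraries of some genotype, and 9 of these 12 markers were listed through WT alone, so that their low level in the overexpressors was set in part by the listing. Of the other 3, 2 fell in each overexpressor. Of all genes not listed through WT alone, 17.4% fell in SPCHΔ49 basl-2 and 12.9% in SPCHΔ49. The root hair expansin EXPA18 was listed at 0 in all libraries of both overexpressors. Summed over 10 leaf mesophyll markers, the signal was 50142 to 60877 in SPCHΔ49 basl-2, 37478 to 50508 in SPCHΔ49 and 66303 to 67790 in WT. In whole seedlings, fewer cells of a type and less RNA per cell cannot be told apart. Of the 10 leaf markers 3 fell in SPCHΔ49 basl-2 and 5 in SPCHΔ49, and none rose. None of them was listed through WT alone, so the shares to set beside these counts are again 17.4% and 12.9%. The part of root and leaf marker levels in the member levels was not tested.

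Among the 6 MLP genes, 3 were at about 1% to 2% of their WT level in both overexpressors. MLP328 (AT2G01520) was listed at 0 in replicate 1 of SPCHΔ49 basl-2 and had a signal of 3.08 and 15.1 in replicates 2 and 3, against 1.88, 1.39 and 8.99 in SPCHΔ49 and 370.4 and 323.8 in WT. The lowest WT library thus lay far above the highest library of either overexpressor. The mean was 1.75% of that of WT in SPCHΔ49 basl-2 and 1.18% in SPCHΔ49, and the log2 difference to WT was -6.43 in SPCHΔ49 basl-2 and -6.41 in SPCHΔ49 (SE 1.11 each). All log2 differences were taken after adding 1 to the signal, which makes them smaller for low genes. They compare means of log values, which libraries near 0 pull down. They can therefore be larger than the percent of the WT mean implies, and can order the genotypes differently. MLP329 (AT2G01530), the neighbouring paralog, had 0.959, 4.21 and 6.55 in SPCHΔ49 basl-2 and 1.55, 1.40 and 4.55 in SPCHΔ49, against 248.18 and 248.16 in WT. Its log2 difference was -5.87 in SPCHΔ49 basl-2 and -6.26 in SPCHΔ49 (SE 0.59 each), and no library of an overexpressor came near WT.

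The pair is close in sequence as well as in level. In the reference TAIR10.1 (RefSeq), MLP328 lies at chr2:235925-237253 and MLP329 at chr2:239669-240687, both on the plus strand, and 409 of the 456 aligned coding positions (89.7%) are identical. The first 90 coding bases of the pair, from chr2:235992-236081 and chr2:239815-239904, are shown because reads of such copies may be assigned to either, and the 7 bases that differ are in capitals.
MLP328: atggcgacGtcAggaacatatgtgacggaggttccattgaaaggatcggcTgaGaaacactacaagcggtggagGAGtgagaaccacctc
MLP329: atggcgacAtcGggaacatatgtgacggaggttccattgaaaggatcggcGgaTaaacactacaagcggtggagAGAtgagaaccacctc
Of the 31-base words of the annotated transcripts, 2.66% of those of MLP328 and 0.879% of those of MLP329 also occur in another gene. Most of each transcript therefore had words of its own, and both copies were low. The 250 bases before the annotated gene starts of the pair (chr2:235675-235924 and chr2:239419-239668, plus strand) have only a short stretch in common, of 24 aligned columns with 21 identical. It holds the letters ACGTG, the core of the abscisic acid response element (ABRE), in both. Capitals mark matches, on either strand, to ACGTG and to the E-box CANNTG, the letters that basic helix-loop-helix factors such as SPCH can bind.
MLP328: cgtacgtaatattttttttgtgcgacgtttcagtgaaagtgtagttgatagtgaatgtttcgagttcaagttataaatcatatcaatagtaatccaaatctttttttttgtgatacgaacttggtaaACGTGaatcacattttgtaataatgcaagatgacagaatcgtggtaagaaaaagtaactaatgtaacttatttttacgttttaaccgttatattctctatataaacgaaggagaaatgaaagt
MLP329: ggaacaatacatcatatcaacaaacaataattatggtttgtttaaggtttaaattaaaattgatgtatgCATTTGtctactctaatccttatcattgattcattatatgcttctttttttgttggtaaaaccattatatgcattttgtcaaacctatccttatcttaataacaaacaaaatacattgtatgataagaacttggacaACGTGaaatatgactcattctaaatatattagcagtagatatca

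MLP34 (AT1G70850) was the most abundant MLP gene in WT, at 774.0 and 775.3. It had 0.172, 9.66 and 27.2 in SPCHΔ49 basl-2 and 9.11, 3.55 and 20.8 in SPCHΔ49, so that the mean was 1.60% of that of WT in SPCHΔ49 basl-2 and 1.44% in SPCHΔ49. The log2 difference to WT was -6.78 in SPCHΔ49 basl-2 and -6.28 in SPCHΔ49 (SE 1.25 each). The overexpressor libraries differed among themselves far more than the WT libraries did, yet none overlapped WT.

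MLP28 (AT1G70830), of the same cluster as MLP34, set the overexpressors apart from each other. It had a signal of 125.4, 72.4 and 129.3 in SPCHΔ49 basl-2, 22.1, 26.3 and 41.9 in SPCHΔ49, and 329.1 and 416.8 in WT. All 3 genotypes were apart, with SPCHΔ49 lowest at 8.06% of the WT mean and SPCHΔ49 basl-2 between them at 29.2%. MLP28 rose in SPCHΔ49 basl-2 relative to SPCHΔ49 by 1.83 (SE 0.30) on the log2 scale, with a limma adjusted p of 0.0192 over all genes. It was the only one of the 10 members past the threshold of 0.05 in that comparison, in which 5.41% of all genes passed (2.05% higher and 3.36% lower). This test uses the SPCHΔ49 libraries on which the choice of members also rested. Leaving out 1 library ended the call in 3 of 8 cases, with an adjusted p of 0.0509 without SPCHΔ49 replicate 1, 0.0992 without SPCHΔ49 replicate 2 and 0.0883 without SPCHΔ49 basl-2 replicate 1, while the difference stayed between 1.64 and 2.097 on the log2 scale. MLP28 and MLP34 share 85.0% of aligned coding positions and 98 words of 31 bases, 6.92% and 7.25% of the words of each having a match in another gene.

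MLP43 (AT1G70890), which closes the cluster, followed the same order with smaller steps. It had 53.3, 41.7 and 46.1 in SPCHΔ49 basl-2, 32.5, 36.8 and 33.4 in SPCHΔ49, and 79.0 and 91.6 in WT, and the 3 genotypes did not overlap. In SPCHΔ49 basl-2 the mean was 55.1% of that of WT and in SPCHΔ49 40.1%. Between the overexpressors the log2 difference was 0.44 (SE 0.11, 95% interval 0.17 to 0.71), with a limma adjusted p of 0.0736, which did not pass. MLP43 was also the steadiest member within both overexpressors, with a range of 0.35 between the log2 values of the SPCHΔ49 basl-2 libraries and 0.17 between those of SPCHΔ49.

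MLP423 (AT1G24020) lies elsewhere on chromosome 1, beside the MLP family genes AT1G24010 and AT1G24000, which were not listed. MLP423 had 36.2, 11.3 and 65.8 in SPCHΔ49 basl-2, 46.7, 77.0 and 96.1 in SPCHΔ49, and 76.5 and 78.8 in WT. The SPCHΔ49 libraries lay on both sides of WT, while the 3 SPCHΔ49 basl-2 libraries were below it. The log2 difference of SPCHΔ49 basl-2 to SPCHΔ49 was -1.19 (SE 0.58, 95% interval -2.55 to 0.18), with a limma adjusted p of 0.289, and the libraries overlapped. The family in the overexpressors thus held levels near 1% of WT (MLP328, MLP329 and MLP34), intermediate levels (MLP28 and MLP43) and a level that overlapped WT in SPCHΔ49 (MLP423).

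**Figure D1:**
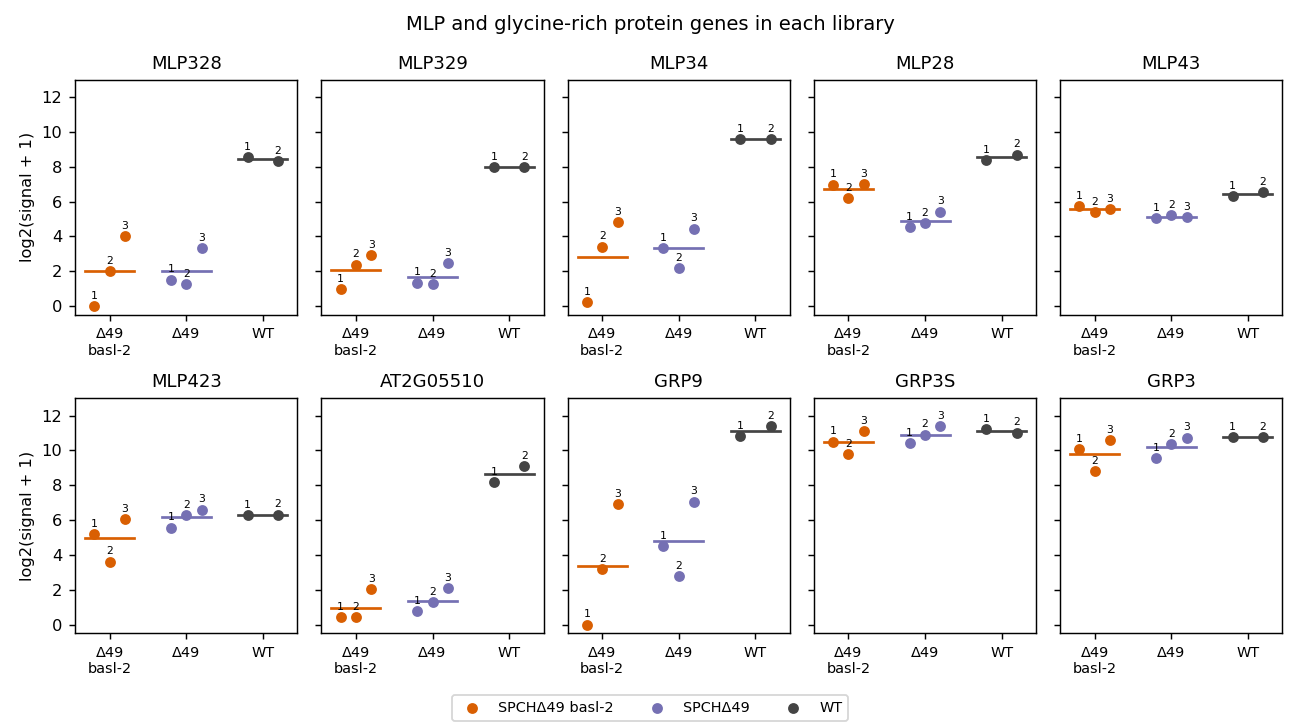
Level of each of the 10 genes as log2(signal + 1) in each library, 1 panel a gene, with SPCHΔ49 basl-2 left, SPCHΔ49 in the middle and WT right. Points are libraries numbered by replicate and the line is the mean of the group on the log2 scale. MLP328, MLP329, MLP34, AT2G05510 and GRP9 drop far below WT in both overexpressors, whereas GRP3S and GRP3 stay within about 2 log2 units of WT.

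The 4 glycine-rich protein genes split into 2 nearly lost and 2 kept at high level. AT2G05510, the only member listed through WT alone, had a signal of 0.347, 0.328 and 3.11 in SPCHΔ49 basl-2 and 0.700, 1.44 and 3.23 in SPCHΔ49, against 290.2 and 554.7 in WT. The mean was 0.299% of WT in SPCHΔ49 basl-2 and 0.424% in SPCHΔ49, the lowest share of any member, with log2 differences of -7.69 in SPCHΔ49 basl-2 and -7.27 in SPCHΔ49 (SE 0.60 each). GRP9 (AT2G05440) was listed at 0 in replicate 1 of SPCHΔ49 basl-2 and had 8.13 and 121.9 in replicates 2 and 3. In SPCHΔ49 it had 21.7, 5.81 and 132.6, against 1814 and 2691 in WT, where it stood beside GRP3S at the top of the members. Its log2 difference to WT was -7.73 in SPCHΔ49 basl-2 and -6.33 in SPCHΔ49 (SE 1.97 each). GRP9 was the least steady member, with a range of 6.94 between the log2 values of the SPCHΔ49 basl-2 libraries and 4.29 between those of SPCHΔ49, but every overexpressor library lay below both WT libraries.

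GRP3S (AT2G05380), a short paralog of GRP3, had 1457, 886.5 and 2195 in SPCHΔ49 basl-2, 1359.55, 1926 and 2660.15 in SPCHΔ49, and 2418 and 2088 in WT. Libraries of both overexpressors overlapped WT. The log2 difference to WT was -0.67 in SPCHΔ49 basl-2 and -0.23 in SPCHΔ49 (SE 0.41 each), and after quantile normalization the second was 0.02. GRP3 (AT2G05520), the ligand of WAK1, had 1069, 442.9 and 1544 in SPCHΔ49 basl-2, 754.8, 1304 and 1710.05 in SPCHΔ49, and 1717 and 1738 in WT. All 6 overexpressor libraries were below WT, the nearest by less than the range within either overexpressor, and the log2 difference was -0.94 in SPCHΔ49 basl-2 and -0.54 in SPCHΔ49 (SE 0.54 each). GRP3S and GRP3 were the 2 most abundant members in both overexpressors, at 1513 ± 656 and 1018 ± 552 in SPCHΔ49 basl-2 and 1982 ± 652 and 1256 ± 479 in SPCHΔ49 (SD, n = 3 each).

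All 4 glycine-rich genes share their basic make-up. Glycine (GGN) codons make up 41.7% of the coding sequence of AT2G05510, 49.4% of GRP9, 28.0% of GRP3S and 32.4% of GRP3, against 5.30% to 9.68% in the 6 MLP members. The stretches of 90 coding bases with the most glycine codons are shown with those codons in capitals, from chr2:2016375-2016464, chr2:1993801-1993890, chr2:1967629-1967718 and chr2:2026604-2026693 (TAIR10.1, plus strand), since they show the repeat that gives the family its name and how its spacers differ.
AT2G05510: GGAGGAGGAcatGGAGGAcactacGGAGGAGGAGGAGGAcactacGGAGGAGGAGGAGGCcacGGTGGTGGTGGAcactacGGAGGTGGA
GRP9: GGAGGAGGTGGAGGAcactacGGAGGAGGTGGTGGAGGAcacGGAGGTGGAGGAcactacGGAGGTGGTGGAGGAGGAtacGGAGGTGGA
GRP3S: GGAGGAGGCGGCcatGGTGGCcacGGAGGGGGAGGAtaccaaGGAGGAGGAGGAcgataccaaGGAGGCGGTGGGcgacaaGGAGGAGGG
GRP3: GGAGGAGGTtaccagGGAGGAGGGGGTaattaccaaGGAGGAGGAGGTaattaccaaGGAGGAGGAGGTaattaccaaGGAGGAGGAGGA
In these windows 22, 24, 21 and 19 of 30 codons are glycine codons, in the order shown. The spacers of the 2 nearly lost genes are mostly cac and tac codons, while those of GRP3S and GRP3 include caa or cag and, in GRP3, aat. Over the whole coding sequence AT2G05510 and GRP9 are 72.7% identical and GRP3S and GRP3 63.0%.

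The 250 bases before the gene starts are shown for all 4, so that those of the nearly lost genes can be set beside those of the kept ones. The positions are chr2:2015374-2015623, chr2:1992788-1993037, chr2:1966360-1966609 and chr2:2025741-2025990 (TAIR10.1, plus strand), with ACGTG and CANNTG matches on either strand in capitals as above.
AT2G05510: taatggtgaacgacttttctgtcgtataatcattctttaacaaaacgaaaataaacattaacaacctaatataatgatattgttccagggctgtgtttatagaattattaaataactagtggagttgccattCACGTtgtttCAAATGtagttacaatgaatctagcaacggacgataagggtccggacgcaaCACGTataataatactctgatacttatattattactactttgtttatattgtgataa
GRP9: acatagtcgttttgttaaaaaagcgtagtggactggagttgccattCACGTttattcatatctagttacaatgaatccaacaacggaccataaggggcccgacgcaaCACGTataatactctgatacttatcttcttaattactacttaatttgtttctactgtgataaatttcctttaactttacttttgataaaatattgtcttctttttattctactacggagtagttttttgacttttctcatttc
GRP3S: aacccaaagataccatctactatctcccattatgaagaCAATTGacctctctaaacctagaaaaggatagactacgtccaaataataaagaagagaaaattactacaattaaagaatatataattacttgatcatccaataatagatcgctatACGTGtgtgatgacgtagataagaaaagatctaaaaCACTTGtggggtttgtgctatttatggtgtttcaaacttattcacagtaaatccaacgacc
GRP3: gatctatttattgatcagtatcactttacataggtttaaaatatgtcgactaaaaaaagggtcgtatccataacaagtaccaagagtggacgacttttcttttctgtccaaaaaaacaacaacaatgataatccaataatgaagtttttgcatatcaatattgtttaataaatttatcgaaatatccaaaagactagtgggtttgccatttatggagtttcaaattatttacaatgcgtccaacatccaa
AT2G05510 and GRP9 align over 139 columns, of which 116 (83.5%) are identical, and both hold 2 ABRE cores at a distance of 61 bases, at -118 and -57 in AT2G05510 and at -204 and -143 in GRP9. GRP3S and GRP3 align over 69 columns with 54 identical (78.3%), and AT2G05510 aligns with GRP3 to a like extent, over 65 columns with 51 identical (78.5%). GRP3S holds 1 core while GRP3 holds no match to either motif. Over all 10 members an ABRE core was present in 6, against 23.7% of the promoters of listed genes, and an E-box in 5, against 56.3%. The G-box CACGTG, whose letters contain both motifs, was present in 0 of 10, against 7.44% of listed genes. These matches describe the letters of the window alone.

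Set against the whole table, every library of SPCHΔ49 basl-2 lay below both WT libraries for 9 of 10 members (35.5% of all genes) and every library of SPCHΔ49 for 8 of 10 (32.7% of all genes). The mean was also under 10% of WT for 5 of 10 members in SPCHΔ49 basl-2 (3.64% of all genes) and for 6 of 10 in SPCHΔ49 (3.54%). The members were chosen from these differences, and nothing is read from the counts. The 2 comparisons share the WT libraries.

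Between the overexpressors, 2 of 10 members, MLP28 and MLP43, were higher in every SPCHΔ49 basl-2 library than in any SPCHΔ49 library, as were 10.7% of all genes, and the other 8 overlapped. Of the genes near 1% of WT, MLP328 differed by -0.02 on the log2 scale (95% interval -2.34 to 2.30), MLP329 by 0.39 (-0.84 to 1.63), MLP34 by -0.50 (-3.14 to 2.13) and AT2G05510 by -0.42 (-1.68 to 0.84). GRP9 differed by -1.40, with an interval of -5.53 to 2.73. For GRP3S the difference was -0.43 (-1.29 to 0.43) and for GRP3 -0.40 (-1.53 to 0.73). The limma adjusted p of these 7 lay between 0.548 and 0.995. The intervals are wide enough to hold several-fold differences in either direction for MLP328, MLP34 and GRP9.

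The members' levels varied between libraries in a like way in both overexpressors. Replicate 3 had the highest level of 9 of 10 members in SPCHΔ49 basl-2 and of the same 9 in SPCHΔ49, with MLP43 as the exception in both, against 41.9% and 41.2% of all genes. For 29.3% of all genes replicate 3 was highest in both. The deviations of the 2 replicate 3 libraries from their group means correlated at 0.756 across genes, which are not independent replicates. Those of SPCHΔ49 basl-2 replicate 2 and SPCHΔ49 replicate 1 correlated at 0.772, and each of these 2 libraries was the lowest of its genotype for 6 of 10 members. For GRP9 the replicate 3 libraries alone, at 121.9 and 132.6, carried most of the overexpressor signal, and without replicate 3 of its own genotype the log2 difference of GRP9 to WT was -9.51 in SPCHΔ49 basl-2 and -7.47 in SPCHΔ49. Those of AT2G05510 were -8.23 in SPCHΔ49 basl-2 and -7.62 in SPCHΔ49, and those of MLP328 -7.43 in SPCHΔ49 basl-2 and -7.05 in SPCHΔ49. Summed over the root markers the replicate 3 libraries were also highest, at 26.0 in SPCHΔ49 basl-2 and 32.2 in SPCHΔ49. The leaf mesophyll sum was instead lowest in replicate 3 of both, at 50142 in SPCHΔ49 basl-2 and 37478 in SPCHΔ49. The stomatal lineage sum over 12 markers was highest in replicate 3 of SPCHΔ49 basl-2 (697.4) and lowest in replicate 3 of SPCHΔ49 (3007). Most of both sums was SPCH, the gene of the transgene, at 486.6 and 2488, so they mainly follow its level. FAMA, TMM, POLAR and SLAC1 were lowest in replicate 3 of both overexpressors. EPF2, MYB60 and KAT1 were highest in replicate 3 of SPCHΔ49 basl-2, and MPK12 was lowest there. MUTE, EPF1 and KAT1 were highest in replicate 3 of SPCHΔ49, and BASL and MYB60 were lowest there. The summed signal of 10 abscisic acid and dehydration markers was 524.9, 428.5 and 538.7 in SPCHΔ49 basl-2 and 227.0, 322.5 and 816.2 in SPCHΔ49, again with replicate 3 highest, against 767.5 and 1251 in WT. Every marker was highest in replicate 3 of SPCHΔ49. In SPCHΔ49 basl-2, RAB18 was lowest in replicate 3 and RD22 and COR15A were highest in replicate 1, unlike the others. RD22 alone gave 453.3 and 527.9 of the WT sums, while RAB18 was above WT in every SPCHΔ49 basl-2 library. In limma 3 of 10 fell in SPCHΔ49 basl-2 and 2 in SPCHΔ49, against 21.6% and 17.3% of all genes, and none rose. RD29B and KIN1 were listed through WT alone. Of the other 8, 1 fell in each overexpressor. Of all genes not listed through WT alone, 17.4% fell in SPCHΔ49 basl-2 and 12.9% in SPCHΔ49. The part of these marker sums in the member levels was not tested. In WT, replicate 2 was higher for 7 of 10 members, among them AT2G05510 and GRP9.

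**Figure D2:**
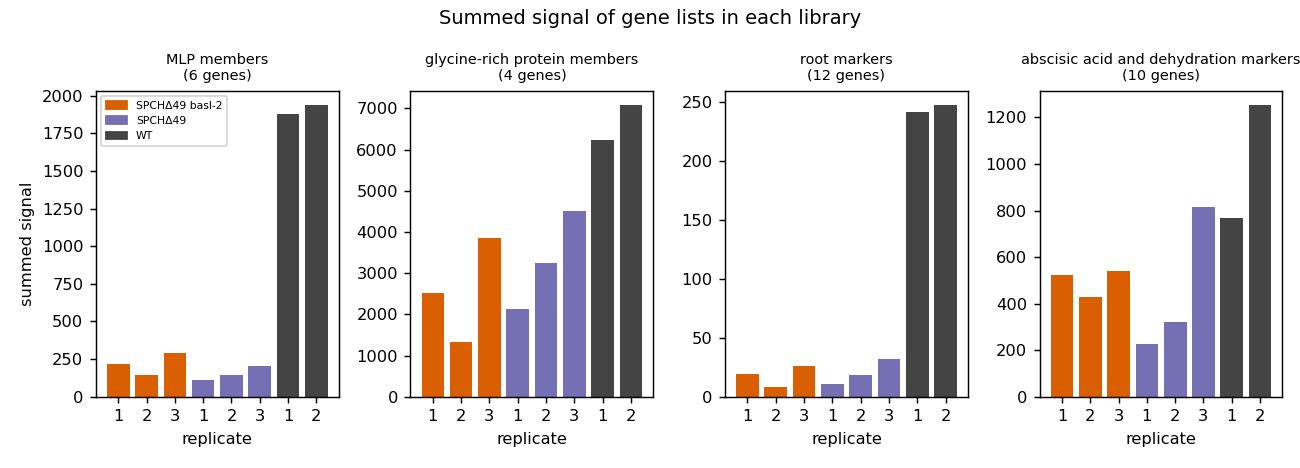
Summed signal of the 6 MLP members, the 4 glycine-rich members, 12 root markers and 10 abscisic acid and dehydration markers in each library, bars from 0, with SPCHΔ49 basl-2 left, SPCHΔ49 next and WT right. The MLP sum was 142.4 to 290.1 in SPCHΔ49 basl-2 and 113.9 to 205.8 in SPCHΔ49, against 1877 to 1934 in WT, and within each overexpressor replicate 3 has the highest bar of all 4 sums.

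The listed genes nearest to the members on the chromosome are given with positions from TAIR10.1. MLP328 and MLP329 span 4.8 kb, and the nearest listed genes on either side, the CLE peptide gene CLE16 and CAR10, averaged 2.72 ± 0.67 and 20.8 ± 2.69 in SPCHΔ49 basl-2 and 5.30 ± 1.90 and 19.9 ± 3.40 in SPCHΔ49 (SD, n = 3 each), against 3.07 ± 0.28 and 14.0 ± 0.21 in WT (SD, n = 2 each). CAR10 rose by 0.53 on the log2 scale in SPCHΔ49 basl-2 (limma adjusted p 0.043) and did not pass in SPCHΔ49 (0.0752), and CLE16 passed in neither, although all SPCHΔ49 libraries of CLE16 were above WT. Beside MLP423, the kinase gene PBL28 had a mean of 1.20 in SPCHΔ49 basl-2 and 1.37 in SPCHΔ49, against 2.30 in WT. It fell by 0.58 on the log2 scale in SPCHΔ49 basl-2 (limma adjusted p 0.0175) and by 0.48 in SPCHΔ49 (0.0403). On the other side of MLP423, AT1G23995 overlapped WT in both overexpressors. It passed in neither SPCHΔ49 basl-2 (limma adjusted p 0.801) nor SPCHΔ49 (0.592). MLP28, MLP34 and MLP43 lie within 16.8 kb, chr1:26709889-26726652, on the minus strand, with 7 protein-coding genes of which 5 were listed. The other listed genes there, AT1G70860 and AT1G70880, are MLP genes too, and were at 2.56% and 5.83% of the WT mean in SPCHΔ49 basl-2 and at 0.60% and 5.89% in SPCHΔ49. Outside the cluster, AT1G70820 was at 97.5% of WT in SPCHΔ49 basl-2 and 73.9% in SPCHΔ49, and CLE17 at 145.0% in SPCHΔ49 basl-2 and 167.6% in SPCHΔ49, and neither gene passed the test in either overexpressor. MLP31 and AT1G70870, between them, are not analysed here.

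The glycine-rich members lie within 60.7 kb of chromosome 2, chr2:1966610-2027283, with 8 protein-coding genes of which only these 4 were listed. GRP3S and GRP3 stand at the ends and kept 67.1% and 58.9% of the WT mean in SPCHΔ49 basl-2 and 88.0% and 72.7% in SPCHΔ49, while GRP9 and AT2G05510 between them were at 2.37% or less in both. Beyond GRP3S, the nearest listed gene GNT2 was at 84.9% of the WT mean in SPCHΔ49 basl-2 and 102.8% in SPCHΔ49. It passed in neither (limma adjusted p 0.271 and 0.867). The next listed gene beyond GRP3, AT2G05540, is another glycine-rich protein gene. It had 2543, 3501 and 1289 in SPCHΔ49 basl-2, 1522, 1199.94 and 981.8 in SPCHΔ49, and 1243 and 1072 in WT. It was the only one of the 5 listed glycine-rich genes named on this stretch whose libraries were all above WT in SPCHΔ49 basl-2, with a log2 difference of 0.97 and a limma adjusted p of 0.103, which did not pass. Without SPCHΔ49 basl-2 replicate 3, the library of that genotype nearest to WT, the difference was 1.37 with a limma adjusted p of 0.00928. No other fit that left out 1 library gave a call.

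**Figure D3:**
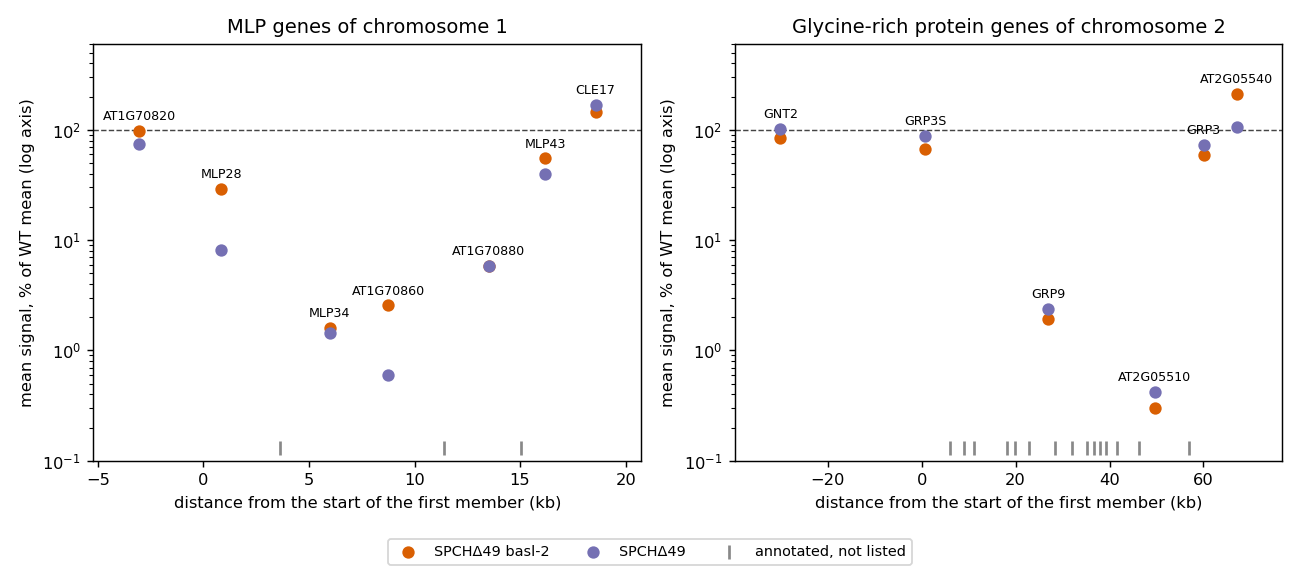
Mean signal as a percent of the WT mean (log axis) against the distance from the start of the first member, for the MLP genes of chromosome 1 (left) and the glycine-rich protein genes of chromosome 2 (right), in SPCHΔ49 basl-2 and SPCHΔ49. The dashed line marks the WT level and grey ticks are annotated genes that are not listed. On chromosome 1 the MLP genes range from 0.60% of WT (AT1G70860 in SPCHΔ49) to 55.1% (MLP43 in SPCHΔ49 basl-2), and on chromosome 2 GRP9 and AT2G05510 lie far below GRP3S, GRP3 and AT2G05540.

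Relatives that are not members were tested in the fit over all genes. Their lists were also drawn up with earlier results of these data known, so the counts describe the lists and are not independent. Of 22 further MLP family genes 13 were listed, and in each overexpressor 10 of 13 fell and 1 rose. Among all genes 21.6% fell and 12.6% rose in SPCHΔ49 basl-2, and 17.3% fell and 9.90% rose in SPCHΔ49. Of the 13, AT1G70860, AT1G70880, AT1G14960 and AT4G14060 were listed through WT alone, and so had to be under 1 in at least 1 library of each overexpressor. Of the other 9, 6 fell and 1 rose in each overexpressor, where of all genes not listed through WT alone 17.4% fell and 13.7% rose in SPCHΔ49 basl-2 and 12.9% fell and 10.7% rose in SPCHΔ49. Without WT replicate 1 only 10 of the 13 could be tested, of which 5 fell in SPCHΔ49 basl-2 and 3 in SPCHΔ49, and without WT replicate 2 the counts were again 5 and 3. AT4G23670, the most abundant relative, had 625.2, 355.2 and 671.0 in SPCHΔ49 basl-2 and 491.0, 516.7 and 468.2 in SPCHΔ49, against 2279 and 2871 in WT. It fell by 2.27 on the log2 scale in SPCHΔ49 basl-2 (limma adjusted p 0.00113) and by 2.38 in SPCHΔ49 (0.000911), and kept its call in all 8 fits that left out 1 library. AT3G26460 had 1.32, 1.27 and 1.25 in SPCHΔ49 basl-2 and 0.821, 1.44 and 1.61 in SPCHΔ49, against 38.9 and 41.7 in WT, and also kept its call in all 8. AT1G23130 went the other way, at 1021, 886.7 and 985.0 in SPCHΔ49 basl-2 and 709.8, 751.4 and 807.3 in SPCHΔ49 against 518.8 and 465.7 in WT. It rose by 0.97 in SPCHΔ49 basl-2 (limma adjusted p 0.00128) and by 0.62 in SPCHΔ49 (0.00923), and the second call was lost without WT replicate 1 (0.059) or WT replicate 2 (0.1). Between the overexpressors 0 of 13 passed in limma, with 2 at an unadjusted p under 0.05 (AT1G23130 and MLP168).

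Among 20 further glycine-rich protein genes, 16 were listed, none of them through WT alone, and the changes went in both directions. The 20 are not the whole family, since AT4G33610, named below, is not among them. The share that rose was near that of all genes not listed through WT alone, and the share that fell was above it. In SPCHΔ49 basl-2 7 fell and 2 rose, against 17.4% and 13.7% of those genes. In SPCHΔ49 8 fell and 2 rose, against 12.9% and 10.7%. The medians were -0.36 on the log2 scale in both, against -0.06 in SPCHΔ49 basl-2 and -0.01 in SPCHΔ49 over all genes. Without WT replicate 1 the counts were 4 and 1 in SPCHΔ49 basl-2 and 4 and 0 in SPCHΔ49, and without WT replicate 2 they were 5 and 0 in both. DOT1, known for a role in leaf vein patterning, had 139.3, 129.7 and 223.9 in SPCHΔ49 basl-2 and 199.3, 218.0 and 327.6 in SPCHΔ49, against 1099 and 1046 in WT. It fell by 2.74 on the log2 scale in SPCHΔ49 basl-2 (limma adjusted p 0.00059) and by 2.14 in SPCHΔ49 (0.00184). The neighbours AT4G30450 and AT4G30460 fell too, with log2 differences of -4.11 and -3.66 in SPCHΔ49 basl-2 and of -3.78 and -3.65 in SPCHΔ49, and those of AT5G46730 were -1.69 in SPCHΔ49 basl-2 and -0.95 in SPCHΔ49. DOT1, AT4G30450, AT4G30460 and AT5G46730 kept these calls in all 8 fits that left out 1 library. AT1G07135 had 76.0, 240.8 and 217.2 in SPCHΔ49 basl-2 and 132.3, 50.3 and 101.0 in SPCHΔ49, against 16.4 and 17.5 in WT. It rose by 3.15 on the log2 scale in SPCHΔ49 basl-2 (limma adjusted p 0.00576) and by 2.30 in SPCHΔ49 (0.0222), but lost the first call without WT replicate 1 (0.058) or WT replicate 2 (0.0522), and the second without either (0.137 and 0.124) or without SPCHΔ49 replicate 1 (0.0622) or 3 (0.05). Between the overexpressors AT5G46730 fell by 0.74 in SPCHΔ49 basl-2 (limma adjusted p 0.0165) and AT4G21620 rose by 0.47 (0.0315). The first was lost without any 1 of SPCHΔ49 replicate 2 (0.0766) or 3 (0.0534) and SPCHΔ49 basl-2 replicate 1 (0.0743) or 2 (0.0537). AT4G21620 lost its call in 7 of 8 fits that left out 1 library, with an adjusted p between 0.0548 and 0.146, and after quantile normalization (0.0825).

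Of 7 known partners of the glycine-rich proteins, 4 were listed. WAK1, the receptor kinase that GRP3 binds, had 25.9, 0.590 and 56.5 in SPCHΔ49 basl-2 and 8.85, 45.4 and 62.8 in SPCHΔ49, against 8.32 and 1.85 in WT. The SPCHΔ49 basl-2 libraries overlapped WT and those of SPCHΔ49 lay above it, the lowest by a small margin. The log2 difference was 1.39 in SPCHΔ49 basl-2 (limma adjusted p 0.515) and 2.58 in SPCHΔ49 (0.254), and neither passed. WAK2 differed from WT by 0.75 in SPCHΔ49 basl-2 and 1.26 in SPCHΔ49, and the phosphatase KAPP, which joins WAK1 and GRP3 in a complex, by 0.04 in SPCHΔ49 basl-2 and 0.10 in SPCHΔ49, and neither gene passed. CAD5, the partner of GRP9, had 20.4, 12.0 and 35.0 in SPCHΔ49 basl-2 and 17.8, 29.4 and 47.1 in SPCHΔ49, against 75.6 and 65.7 in WT. It fell by 1.73 on the log2 scale in SPCHΔ49 basl-2 (limma adjusted p 0.0317), a call lost without either WT library (0.166 and 0.127), without SPCHΔ49 replicate 2 (0.0559) or without SPCHΔ49 basl-2 replicate 1 (0.0803) or 2 (0.0639). In SPCHΔ49 the difference of CAD5 was -1.24 with an adjusted p of 0.1, which did not pass.

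**Figure D4:**
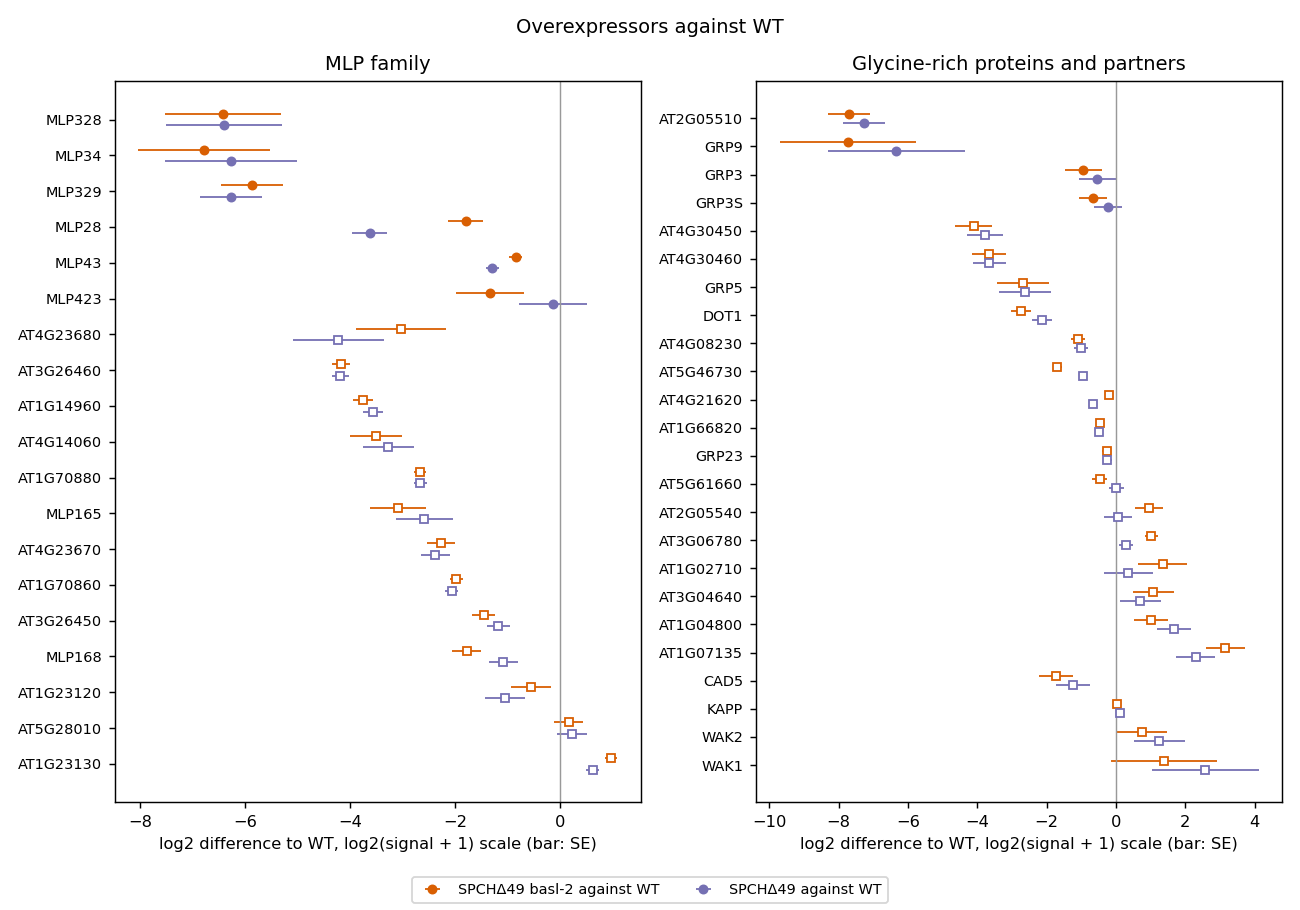
Log2 difference to WT on the log2(signal + 1) scale, with its SE as the bar, for SPCHΔ49 basl-2 (upper point of each pair) and SPCHΔ49 (lower point). Filled circles are the members and open squares the relatives and partners that are not members. Most MLP family genes lie left of 0, while the glycine-rich genes run from -7.73 for GRP9 to 3.15 for AT1G07135 in SPCHΔ49 basl-2.

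Other genes tracked the nearly lost members closely across the 8 libraries. The 5 genes with the highest Pearson correlation to MLP328, among those with a WT mean of at least 5, were AT2G13820 (0.990) and EDA4 (0.987), both of the lipid transfer protein family, the serine hydroxymethyltransferase gene SHM2 (0.987), AT5G05250 (0.986) and the GDSL lipase gene AT2G23540 (0.984). EDA4 had 0, 0.167 and 3.18 in SPCHΔ49 basl-2 and 0.285, 0.378 and 3.15 in SPCHΔ49, against 37.4 and 41.4 in WT, so it shared the high replicate 3. SHM2 had a far smaller gap, with 9.69, 11.4 and 12.8 in SPCHΔ49 basl-2 and 11.6, 11.02 and 13.3 in SPCHΔ49, against 20.0 and 21.8 in WT. The genes most like AT2G05510 were the peroxidase genes PER23 (0.999) and PER20 (0.998), the pectin methylesterase gene PME7 (0.999), the glycine-rich protein gene AT4G33610 (0.999) and AT3G62040 (0.998). AT4G33610 had 0, 0 and 1.33 in SPCHΔ49 basl-2 and 0.081, 0.579 and 1.39 in SPCHΔ49, against 33.6 and 43.0 in WT. Among the members themselves MLP328 correlated at 0.991 with MLP34, 0.982 with MLP329, 0.963 with GRP9 and 0.962 with AT2G05510, but at 0.439 with MLP423. These coefficients describe 8 libraries in 3 groups, which share the gap between WT and the overexpressors.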

How the data were processed

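RNA-seq libraries of 8 whole-seedling samples were grouped by the genotype in the labels. Per the submitters' processing notes the tools were Trimmomatic 0.38 for trimming, kallisto 0.44.0 for quantification, and sleuth. The build, the annotation and how genes were selected were not given in the sources used here. Each deposited signal was named TPM by the authors, per the file headers, but the totals differ between libraries (852202 to 1075376), so it was treated as a signal rescaled by an unstated step. The design had assumed TPM, and the same test was used. The deposited series table and sample files agreed to within 4.96e-06. All 18855 genes reached 1 in every library of at least 1 genotype, and a filter of 1 in at least 2 samples removed 0. An exact 0 can be a failed estimate.

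Differences were fitted with limma 3.58.1 (R 4.3.3) on log2(signal + 1), with genotype means over all 8 samples, an intensity trend, and p-values (two-sided, threshold 0.05) adjusted by Benjamini-Hochberg over all genes. The fit was also run on simulated data with independent noise, unlike these libraries, and nothing is read from that run. Members against WT have no test. The members and lists were chosen with earlier results of these data known. Named are the members, the partners and some of the relatives with a mean of at least 5 in a genotype. Chromosomal neighbours and the 5 genes most correlated with MLP328 and with AT2G05510 are named too. Other relatives above that mean are not named, so an unnamed relative need not be low. Sequences and positions come from TAIR10.1 (RefSeq), which matched 10 of 10 members and 18754 of 18855 identifiers; whether the authors used it is not known. Families that share sequence, and overlapping or antisense genes, are uncertain gene by gene.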

Additional observations from a re-analysis of the deposited data

How the results depend on the processing

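The members' log2 differences to WT moved by less than 1 residual SD of the gene in 319 of 320 recomputed values. The exception was AT2G05510 in SPCHΔ49 basl-2 at -8.88 with a pseudocount of 0.1. This count cannot show steadiness, because several settings, such as no filter or leaving out a library of the third genotype, cannot change a difference. An unsteady gene also has a large SD. GRP9 ran from -9.51 to -6.04 in SPCHΔ49 basl-2 and from -7.79 to -5.33 in SPCHΔ49. Between the overexpressors MLP28 was called under all alternatives that kept all libraries, and leaving out 1 library gave 0 to 1 member called. Genes called numbered 6458 for SPCHΔ49 basl-2 against WT and 1624 to 7052 without 1 library, 5120 for SPCHΔ49 against WT and 1121 to 5636 without 1 library, and 1020 for SPCHΔ49 basl-2 against SPCHΔ49 and 151 to 1242 without 1 library. The lowest counts against WT came without WT replicate 1, and that between the overexpressors without SPCHΔ49 replicate 2. A stricter filter (a mean of 5) gave 671 in the comparison of the overexpressors, where fewer genes were tested, and a fit of only the 2 genotypes gave 495. Relatives and partners called numbered 21 against WT in both comparisons, and 11 to 23 for SPCHΔ49 basl-2 and 7 to 21 for SPCHΔ49 without 1 library. Between the overexpressors 2 were called, with 1 after quantile normalization, 1 in a fit of only the 2 genotypes, 5 with the replicate block and 0 to 4 without 1 library; the cause was not tested. Leaving out a WT library also dropped genes that reached a signal of 1 only in WT. Quantile normalization shifted the median of all genes by 0.12 (log2) in SPCHΔ49 basl-2 against WT, and the share of calls that were higher was 49.0% against 36.9% as deposited, and 50.7% against 36.5% in SPCHΔ49. The labels do not say whether a shared replicate number links libraries. Same-numbered libraries of the overexpressors correlated at -0.169, -0.0908 and 0.756, while SPCHΔ49 basl-2 replicate 2 and SPCHΔ49 replicate 1 correlated at 0.772. With the replicate block 8045, 6446 and 1494 genes were called in the order above. Depth is unknown, which limits what the lowest signals can show.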
